A study of Mus musculus with 6 samples.

Results

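The immediate early genes Fos, Fosb, Junb, Egr1, Nr4a1, Nr4a2, Nr4a3, Atf3, Ier3 and Crem were examined in brown adipose tissue (BAT) of mice that lack soluble ST2 (sST2). They are 10 of the 35976 rows of the deposited count table and were taken by gene symbol. They were chosen by their known class, the early genes of cAMP, stress and cytokine signals, with the difference between the genotypes already seen, and Ier3 was named for its rise. The group differences of these genes are therefore given as a description, without p-values, and the counts of genes past a threshold support nothing by themselves.

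BAT was taken from 3 wild-type (WT) mice and 3 sST2-KO littermates, on the C57BL/6J background and 10 weeks old. The sST2-KO mice carry a germline CRISPR/Cas9 deletion of the Il1rl1 intron that holds the stop codon of the soluble form, so every cell type carries the deletion and the membrane receptor form is meant to stay. All 6 mice, WT included, had undergone surgical BAT denervation and then 8 h of cold at 10 °C, so neither group has an innervated or a warm control here. RNA was measured by poly-A RNA-seq, and the question was which genes differ in denervated, cold-exposed BAT when sST2 is missing.

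Immediate early genes are transcribed within minutes of a stimulus without new protein synthesis, and most of their mRNAs are short-lived. Fos, Fosb and Junb encode subunits of the transcription factor AP-1. Egr1 encodes a zinc finger factor that growth factor and MAP kinase signals induce through the serum response factor (SRF), the Nr4a genes encode orphan nuclear receptors, Atf3 a stress-induced factor of the ATF/CREB family, and Ier3 a small protein induced by NF-κB and growth signals that acts on survival and ERK signaling. Crem encodes CREB-like activators and, from an internal promoter, the repressor ICER. In brown adipocytes norepinephrine raises cAMP, PKA phosphorylates CREB, and CREB binds cAMP response elements (CREs) in promoters that include those of Fos, Nr4a1 and Crem.

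The promoter windows of 4 of these genes are shown, since their content of the CRE core sequence differed: Fos and Ier3, which were higher in every sST2-KO library than in any WT library, and Nr4a1 and Nr4a3, whose groups overlapped. They are RefSeq windows of GRCm38.p6 from 250 bases before to 50 bases after the gene start, written on the gene's strand, which is plus in all 4: chr12:85473640-85473939 for Fos, chr17:35821463-35821762 for Ier3, chr15:101266596-101266895 for Nr4a1 and chr4:48045055-48045354 for Nr4a3. Capitals mark the core site, TGACG or its reverse complement CGTCA.
Fos: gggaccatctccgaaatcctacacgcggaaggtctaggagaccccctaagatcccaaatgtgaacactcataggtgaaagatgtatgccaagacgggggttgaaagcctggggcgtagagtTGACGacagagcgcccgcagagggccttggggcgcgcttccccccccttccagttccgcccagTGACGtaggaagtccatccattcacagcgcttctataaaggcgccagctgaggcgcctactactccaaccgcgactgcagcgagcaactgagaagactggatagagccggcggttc
Ier3: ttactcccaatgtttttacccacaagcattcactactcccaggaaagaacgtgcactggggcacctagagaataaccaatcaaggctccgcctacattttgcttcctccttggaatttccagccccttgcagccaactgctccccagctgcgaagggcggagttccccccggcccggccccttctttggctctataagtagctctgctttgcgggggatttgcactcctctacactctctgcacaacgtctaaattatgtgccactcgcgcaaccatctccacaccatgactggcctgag
Nr4a1: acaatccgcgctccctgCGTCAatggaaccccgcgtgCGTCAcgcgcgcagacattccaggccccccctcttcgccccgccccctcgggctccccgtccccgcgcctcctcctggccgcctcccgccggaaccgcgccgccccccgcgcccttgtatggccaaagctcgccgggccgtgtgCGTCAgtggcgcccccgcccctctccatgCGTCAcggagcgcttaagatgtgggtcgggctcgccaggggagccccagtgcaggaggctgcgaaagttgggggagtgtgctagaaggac
Nr4a3: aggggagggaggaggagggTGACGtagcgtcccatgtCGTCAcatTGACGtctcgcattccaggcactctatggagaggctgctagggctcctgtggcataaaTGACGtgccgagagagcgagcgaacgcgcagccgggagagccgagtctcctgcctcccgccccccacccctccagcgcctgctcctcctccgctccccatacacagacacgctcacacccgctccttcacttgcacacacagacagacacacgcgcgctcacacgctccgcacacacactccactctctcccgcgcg

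The table of windows matched 8 of the 10 genes, and Egr1 and Crem were not matched. A core site was found on either strand in 7 of the 8 windows, against 21% of all 27025 windows. The Fos window held 2, with their first bases 129 and 66 bases before the start. Nr4a1, Nr4a2 and Nr4a3 held 4 each, and 4 or more were found in 0.252% of all windows. Fosb, Junb and Atf3 held 1 each and Ier3 held none. The full element TGACGTCA, of which the core site is a part, was in none of the 8 windows and in 1.88% of all windows. The AP-1 site TGANTCA (7.93% of all windows), the NR4A site AAAGGTCA (1.46%) and the CArG box that SRF binds (1.57%) were also found in none of the 8. TATAAA, searched on the gene's strand only, was in Fos and Junb (8.88% of all windows). It began 33 bases before the start in Fos but at the start itself in Junb, so the Junb match is not upstream of it. Core sites were found in the windows of Fos, Fosb and Junb, which were higher in sST2-KO, and of the Nr4a genes and Atf3, which overlapped. Ier3, also higher, had none. The relation of the sites to the levels was not tested. A match is a string of letters and was not tested for binding, and these short windows leave out distant enhancers.

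**Figure D1:**
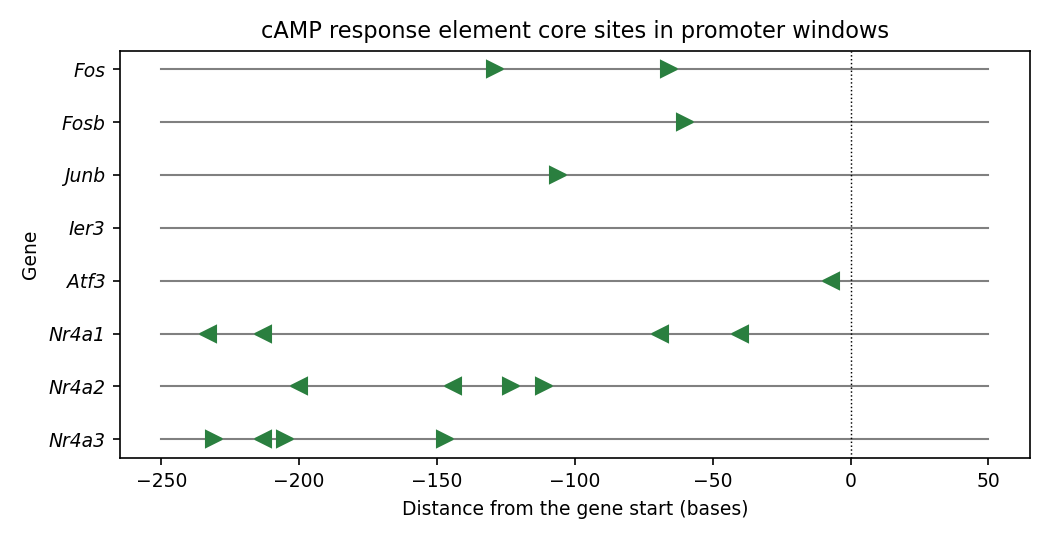
CRE core sites (green triangles, pointing right on the gene's strand and left on the opposite strand) in the windows of 8 immediate early genes, by distance from the gene start in bases. Each Nr4a window holds 4 and the Ier3 window none.

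The 6 libraries held 8159442 to 12874809 counts, and all 10 genes were detected in every library and passed the expression filter that left 14542 genes to test. Values are given as normalized CPM, the counts scaled to library size after TMM normalization. With 3 libraries in each group, a gene "passed" here when the quasi-likelihood test of edgeR gave it an adjusted p under 0.05 (Benjamini-Hochberg, over all genes tested), and was "called" when it also differed by more than 2-fold. Of all genes tested, 10.5% passed with a higher level in sST2-KO and 9.10% with a lower level, and 9.04% and 7.10% were called higher and lower. The called genes were thus 56% higher ones, and 72.7% with scaling by total counts, which moved the median log2 fold change of all genes from 0.03 to 0.29. Il1rl1, the targeted gene, was counted 19, 19 and 6 times in the WT libraries and 55, 69 and 142 times in the sST2-KO libraries. Its log2 fold change was 2.56 ± 0.57, and it was called higher (adjusted p = 0.0239). These counts add the soluble and the membrane form, so they do not check the genotype.

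Of the 10 genes, 5 were called higher in sST2-KO, Fos, Fosb, Junb, Egr1 and Ier3, and none was called lower by edgeR or DESeq2. Of all genes tested, 9.04% were called higher and 7.10% lower. At an unadjusted p under 0.05 in edgeR, 6 of the 10 were higher and 1, Crem, was lower. In the 5 called genes no sST2-KO library overlapped any WT library, as in 21.8% of all genes tested. Crem was lower in every sST2-KO library than in any WT library, as were 19.7% of all genes tested, and the other 4 (Atf3 and the Nr4a genes) overlapped. The median log2 fold change over the 10 was 1.42, beside 0.03 over all genes tested. Since the contrast was known when the genes were selected, nothing is read from these shares.

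**Figure D2:**
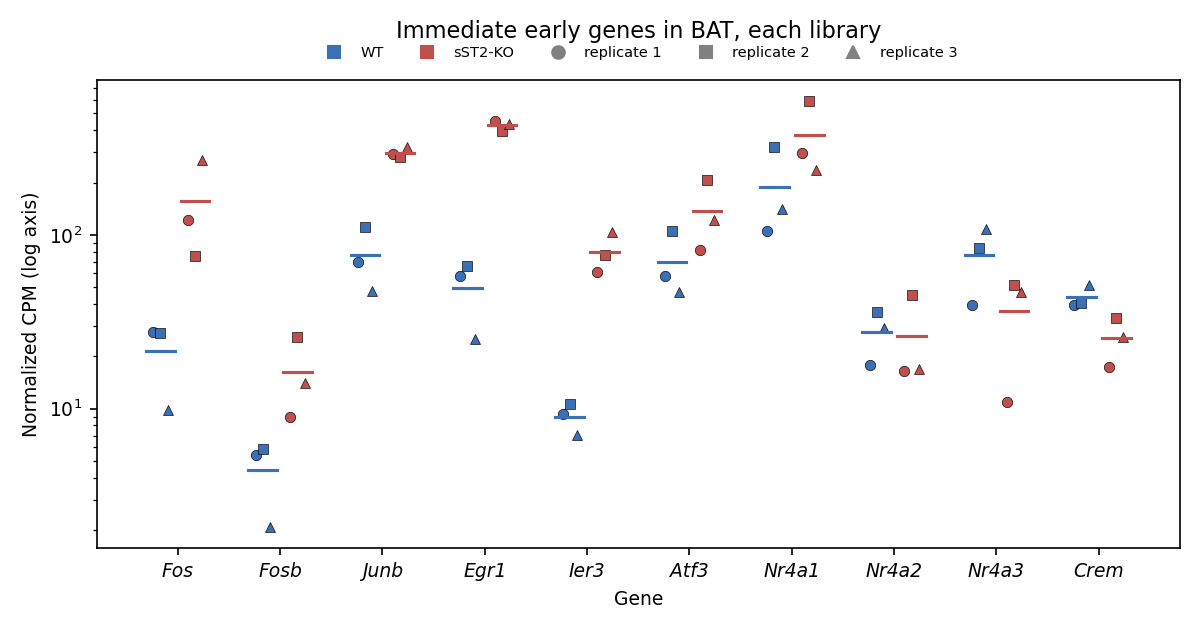
Normalized CPM (log axis) of the 10 genes in each library, with WT in blue, sST2-KO in red, the replicate number given by the symbol and the group mean by a line. Fos, Fosb, Junb, Egr1 and Ier3 are separated upward and Crem downward, and the Nr4a genes and Atf3 overlap.

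Among the AP-1 subunits, Fos (GRCm39 chromosome 12, 85520658 to 85524047, plus strand) was at 27.6, 27.3 and 9.86 normalized CPM in WT and at 122, 75.5 and 270 in sST2-KO, each group in the order of its replicates 1 to 3, as for the other genes below. Every sST2-KO value lay above the highest WT value, WT replicate 3 was the lowest of all and sST2-KO replicate 3 the highest. The fitted log2 fold change was 2.85 ± 0.57 (SE, n = 3 per group), or 7.19-fold, and 2.18 or 4.53-fold without sST2-KO replicate 3. The spread of Fos among sST2-KO mice, with a coefficient of variation of 65.1%, was wider than that of the other called members.

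Fosb, the paralog of Fos (chromosome 7, 19036621 to 19043976, minus strand), was much rarer, at 5.41, 5.84 and 2.10 in WT and 8.92, 25.9 and 14.1 in sST2-KO, which rested on 17 to 218 counts. The groups did not overlap, but sST2-KO replicate 1 stood only slightly above WT replicate 2. Its log2 fold change was 1.85 ± 0.51. The counts do not tell the full-length FosB transcript from the spliced ΔFosB form.

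Junb (chromosome 8, 85701113 to 85705359, minus strand), whose protein pairs with Fos proteins, was at 69.4, 112 and 47.7 in WT and at 292, 282 and 320 in sST2-KO. The sST2-KO mice were alike, with a coefficient of variation of 6.65%, and all lay far above the highest WT value. The log2 fold change was 1.96 ± 0.32, or 3.90-fold. Prdx2 lies on the opposite strand over part of the locus, and 77 of the 1809 bases of the canonical Junb transcript are shared with exons of other genes. The use of strand in the counting was not stated, and Prdx2 itself had 2048 to 2667 counts in WT and 1287 to 1846 in sST2-KO.

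Egr1 (chromosome 18, 34992876 to 34998049, plus strand) was at 57.9, 65.9 and 25.3 in WT and at 452, 398 and 434 in sST2-KO. Its sST2-KO values were as even as those of Junb, with a coefficient of variation of 6.38%, against 43.3% in WT. The log2 fold change was 3.11 ± 0.37, or 8.60-fold, and the groups were far apart.

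Ier3 (chromosome 17, 36132568 to 36133815, plus strand) was at 9.33, 10.6 and 7.03 in WT and at 60.8, 76.2 and 104 in sST2-KO. The lowest sST2-KO value stood far above the highest WT value. This difference is the one that named the gene, with a log2 fold change of 3.15 ± 0.27 or 8.88-fold. A long noncoding RNA on the opposite strand, Gm66231, shares 396 of the 1139 bases of the canonical Ier3 transcript, and without stated strand use its reads could be counted with those of Ier3.

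Atf3 (chromosome 1, 190902493 to 190950241, minus strand) overlapped between the groups, at 57.8, 105 and 46.7 in WT and 82.1, 206 and 122 in sST2-KO. WT replicate 2 lay above sST2-KO replicate 1. Its log2 fold change of 0.97 ± 0.41 did not pass.

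The 3 Nr4a receptors went different ways and none passed. Nr4a1 (Nur77; chromosome 15, 101151980 to 101172681, plus strand) was at 105, 318 and 140 in WT and 296, 588 and 238 in sST2-KO, with WT replicate 2 above 2 of the 3 sST2-KO values and a log2 fold change of 0.99 ± 0.50, or 1.61 without that mouse. Nr4a2 (Nurr1; chromosome 2, 56996842 to 57014331, minus strand) was at 17.7, 35.9 and 29.0 in WT and 16.4, 45.0 and 17 in sST2-KO, and its fitted value of -0.08 ± 0.45 was smaller than its error. Nr4a3 (Nor1; chromosome 4, 48045153 to 48086447, plus strand) was at 39.5, 83.7 and 108 in WT and 10.9, 51.1 and 46.9 in sST2-KO, a log2 fold change of -1.09 ± 0.58. In Nr4a3 the overlap came from WT replicate 1, which lay below sST2-KO replicates 2 and 3. A value that did not pass does not show that the groups were alike.

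Crem (chromosome 18, 3260980 to 3337748, minus strand) was at 39.4, 40.6 and 51.8 in WT and 17.4, 33.1 and 26.0 in sST2-KO. All sST2-KO values lay below all WT values, and the log2 fold change was -0.79 ± 0.26, or 1.73-fold lower. Crem did not pass in edgeR and passed in DESeq2, and it stayed under the 2-fold limit. The counts add the activator transcripts and the repressor ICER, which cannot be told apart in this table. Gm6225, a long noncoding RNA on the opposite strand, shares 369 of the 2979 bases of the canonical Crem transcript and had 3 to 15 counts itself.

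**Figure D3:**
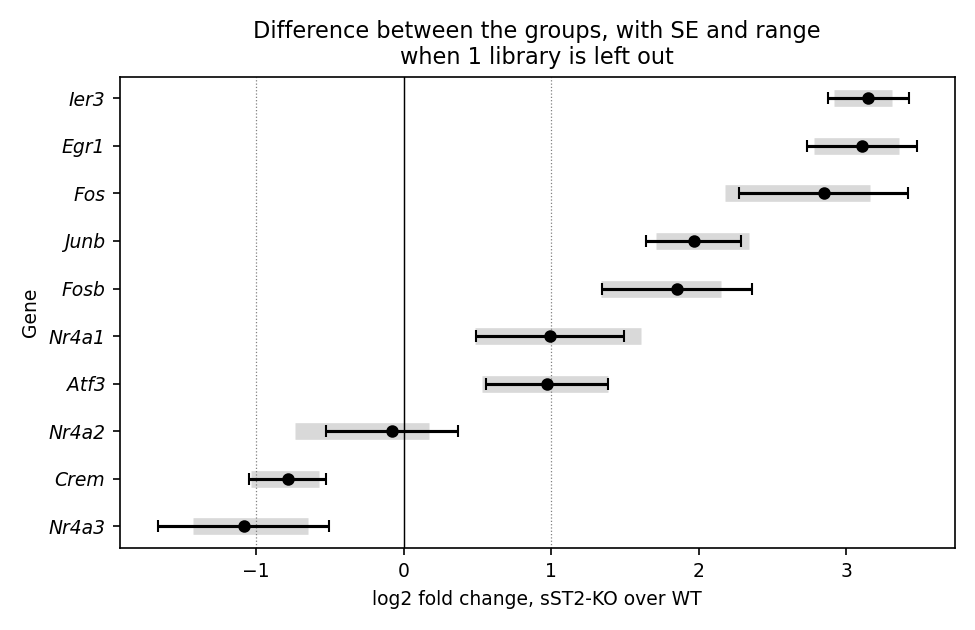
Fitted log2 fold change of sST2-KO over WT for the 10 genes (black points, bars ± SE, n = 3 per group), with grey bands for the range when each of the 6 libraries was left out and dotted lines at a 2-fold change. Ier3, Egr1 and Fos lie highest, and only the band of Nr4a2 crosses 0.

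The calls did not rest equally on all mice. Egr1 and Ier3 were called whichever library was left out, which supports nothing by itself. The genes were chosen with the difference known, and Ier3 was named for it. Junb lost its call without WT replicate 3, and Fos without WT replicate 2 or 3. Fosb kept its call only without sST2-KO replicate 1. Without WT replicate 3, the mouse with the lowest Fos, Fosb, Junb, Egr1 and Ier3, 2 of the 10 genes were called, and without WT replicate 2, 3 were called. The loss was not particular to these genes. Over the whole table, 36 genes were called higher without WT replicate 3 and 391 without WT replicate 2, against 1315 with all libraries. The log2 fold changes of the called 5 stayed positive in all of these fits, between 1.34 for Fosb and 3.36 for Egr1.

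Per kilobase of the canonical transcript, the abundance order of the genes differed between the groups. In WT, Nr4a1 led with 73.7 ± 44.9 normalized CPM per kb (SD, n = 3), followed by Junb with 42.1 ± 18 and Atf3 with 35.1 ± 15.5. Each of these 3 overlapped its neighbor within the SDs. The next 6 ran from Crem at 14.7 ± 2.29 through Nr4a3, Egr1, Fos and Ier3 down to Nr4a2 at 5.78 ± 1.93, and neighbors overlapped there too, while Crem and Nr4a2 did not. Fosb was last at 1.18 ± 0.54, below Nr4a2 by more than both SDs together.

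In sST2-KO, Junb was at 165 ± 10.9 and Nr4a1 at 147 ± 73.7 normalized CPM per kb, then Egr1 at 95.2 ± 6.07, Fos at 73.7 ± 48.0, Ier3 at 70.5 ± 19.1 and Atf3 at 68.9 ± 31.8. Each of these overlapped its neighbor within the SDs. A gap followed, down to Crem at 8.56 ± 2.64 and Nr4a3 at 6.35 ± 3.86, while Nr4a2 and Fosb were at 5.49 ± 3.43 and 4.31 ± 2.30. Egr1, Fos and Ier3, which ranked below Crem in WT, stood above it in sST2-KO.

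**Figure D4:**
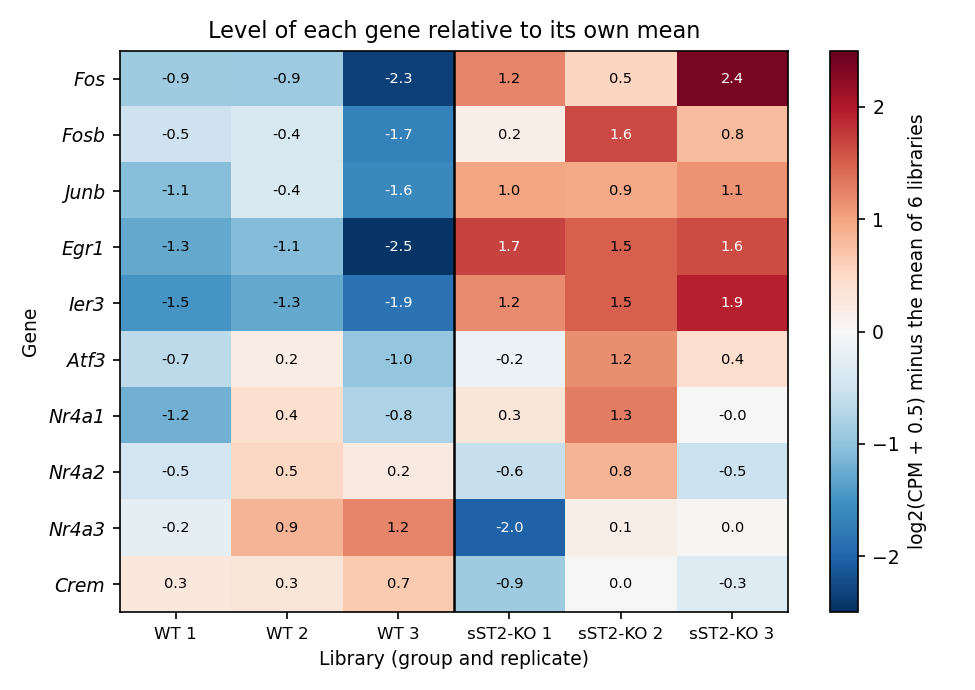
Level of each gene in each library as log2(normalized CPM + 0.5) minus the gene's mean over the 6 libraries, red above and blue below the mean. The rows from Fos to Ier3 change color at the line between the genotypes, while the Nr4a and Atf3 rows are highest in sST2-KO replicate 2 or, for Nr4a3, in WT replicate 3.

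The other genes of these pathways were counted from 5 lists of general knowledge, written with earlier results of these data known. Nothing is therefore read from the counts of these lists. The lists hold 86 genes, of which 83 were tested, 27 passed higher and 6 lower (21 and 5 called), and the median log2 fold change was 0.51. Of all genes tested, 10.5% passed higher and 9.10% lower (9.04% and 7.10% called). Without WT replicate 3, 1 was called higher and 0 lower, and without WT replicate 2, 19 higher and 0 lower. Over the whole table, the first of these fits called 36 genes higher and 22 lower, and the second 391 and 480. Adjusted p-values here are from edgeR.

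Among the 10 AP-1 partners, 3 passed higher and 1 lower. Batf, which pairs with Jun proteins in immune cells, was at 0.986 to 2.54 normalized CPM in WT and 9.49 to 24.0 in sST2-KO (log2 fold change 2.84 ± 0.52, adjusted p = 0.0165). Batf3, a factor of dendritic cells and T cells, rose by 1.79 ± 0.35 (adjusted p = 0.0176). Fosl2, a Fos-related subunit expressed in adipocytes, rose by 1.14 ± 0.23 (adjusted p = 0.0198). Atf2 fell by 0.85 on the log2 scale (adjusted p = 0.0195), which is under 2-fold, and did not pass with total counts or without WT replicate 2, WT replicate 3 or sST2-KO replicate 3 (adjusted p = 0.0503 to 0.0829). Jun, picked after its values were seen as the classical partner of Fos, was at 140, 307 and 147 in WT and 381, 392 and 212 in sST2-KO, and the groups overlapped.

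None of the 10 genes for CREB proteins, their coactivators and kinases passed in edgeR, and the median was 0.22. At an unadjusted p under 0.05, 1 was higher and 2 were lower, and 1 passed lower in DESeq2. Sik2 and Sik3, salt-inducible kinases that hold CREB coactivators in the cytoplasm, had the largest differences, with log2 fold changes of -1.11 ± 0.34 (adjusted p = 0.0554) and -0.62 ± 0.23 (adjusted p = 0.101). Sik2 passed in DESeq2 and without sST2-KO replicate 2, and Sik3 without WT replicate 1.

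Of 13 genes that cAMP induces in brown fat, 12 were tested, 1 passed higher and 5 lower, with a median of -0.62. Ucp1, the uncoupling protein of brown fat, was at 5229 to 10522 normalized CPM in WT and 153 to 1042 in sST2-KO (log2 fold change -4.04 ± 0.87, adjusted p = 0.0226). Dio2, the deiodinase that makes active thyroid hormone in the tissue, was at 547 to 801 and 17.3 to 192 (-2.96 ± 0.80, adjusted p = 0.0404). Without sST2-KO replicate 2, the mouse with the highest Ucp1 and Dio2 of its group, these values were -5.58 and -4.38. Ppargc1a, the coactivator of mitochondrial genes, was at 150 to 252 and 20.4 to 59.2 (-2.20 ± 0.41, adjusted p = 0.0167). These 3 genes were lower in sST2-KO, while Fos was higher. Of the list, Per1, Gem and Pde4b were higher in every sST2-KO library than in any WT library, as were 21.8% of all genes tested. The opposite held for 5 of its genes and for 19.7% of all genes tested. The part of cAMP in these differences was not tested. Irf4, a factor that acts with PGC-1α in thermogenesis, also fell (-3.14 ± 0.84, adjusted p = 0.0398), but WT replicate 3 alone stood at 1418 against 147 and 225 in the other WT mice, and without it the value was -1.46. The phosphodiesterases, picked after their values were seen, split, with Pde4d lower (-1.53, adjusted p = 0.0389) and Pde4b higher (1.61, adjusted p = 0.0169).

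Of 33 other early genes of growth factor and SRF signals, 31 were tested, 10 passed higher and 0 lower in edgeR, with a median of 0.82. At an unadjusted p under 0.05 these were 16 and 2, and in DESeq2 12 and 0 passed. Egr3, a relative of Egr1, rose by 2.76 ± 0.44 from below about 1 normalized CPM (0.370 to 1.03 in WT, 3.55 to 5.22 in sST2-KO, adjusted p = 0.0143). Dusp2, a phosphatase of MAP kinases in immune cells, was at 1.87 to 3.68 and 14.6 to 17.8 (2.62 ± 0.32, adjusted p = 0.0100). Ier5 and Cyr61 (Ccn1), a matricellular target of SRF and YAP, rose by 1.86 ± 0.23 (adjusted p = 0.0100) and 1.86 ± 0.38 (adjusted p = 0.0203).

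Of the 20 early genes of cytokine and stress signals, 13 passed higher and 0 lower in edgeR, with a median of 1.30. At an unadjusted p under 0.05 these were 15 and 0, and in DESeq2 14 and 0 passed. Tnfaip3 (A20), an NF-κB-induced brake on NF-κB, was at 6.90 to 12.1 in WT and 61.3 to 113 in sST2-KO (3.20 ± 0.32, adjusted p = 0.00900), and stayed called whichever library was left out. Il6 was at 0.123 to 1.32 and 5.44 to 26.3 (4.66 ± 0.82, adjusted p = 0.0154, and 5.71 without WT replicate 2). Il1b (5.00 ± 1.06, adjusted p = 0.0213) and Ptgs2 (4.93 ± 1.30, adjusted p = 0.0375), the genes of interleukin-1β and cyclooxygenase-2, stood far higher in sST2-KO replicate 3 than in the other mice, and without it their values were 3.19 and 2.68, Ptgs2 no longer passing. Without WT replicate 1 Ptgs2 was at 5.93 and did not pass either.

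Of the 23 called genes named here, which include the 5 members, Il1rl1 and the Pde4 genes, 20 lost the call without WT replicate 3 (adjusted p = 0.0563 to 0.137), Egr1, Ier3 and Tnfaip3 being the exceptions, and 12 lost it without WT replicate 2. Leaving out any other library cost at most 6. The members and lists were chosen with results of these data known, so the calls that stayed support nothing by themselves.

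**Figure D5:**
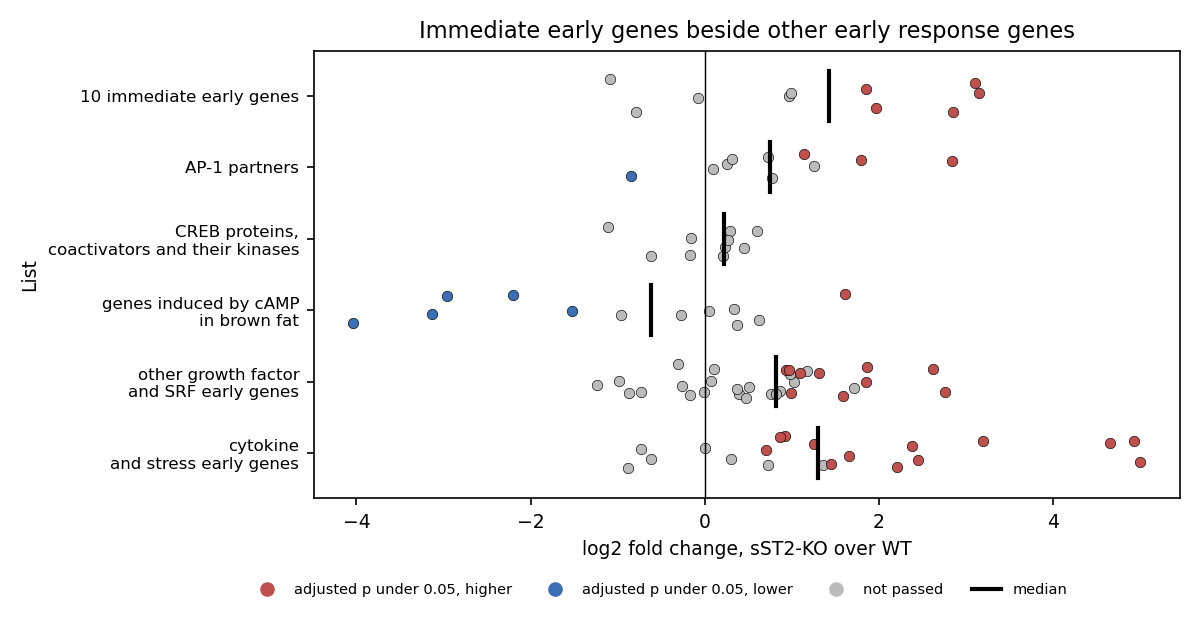
Log2 fold change of sST2-KO over WT of each tested gene (points), for the 10 immediate early genes and 5 lists of related genes, with red and blue for an adjusted p under 0.05 higher and lower and a black line at the median. The medians run from -0.62 in the cAMP-induced genes of brown fat to 1.42 in the immediate early genes.

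Marker sums of most cell types listed were apart between the genotypes, while those of endothelial cells overlapped and those of neutrophils nearly touched. In bulk tissue, fewer cells of a type and less RNA per cell cannot be told apart. The 8 brown adipocyte markers, Ucp1 among them, summed to 8808 to 16509 normalized CPM in WT and 721 to 2490 in sST2-KO, and 6 of 8 were called lower. All 8 T cell markers were higher in every sST2-KO library, 7 of 8 were called, and their sum was 15.1 to 15.9 in WT and 131 to 162 in sST2-KO. Of all genes tested, 21.8% were higher and 19.7% lower in every sST2-KO library, and 9.04% and 7.10% were called. In DESeq2, 6 brown adipocyte markers passed lower, and 7 T cell, 5 macrophage and 6 neutrophil markers passed higher. Macrophage markers summed to 892 to 1198 and 1580 to 6765 (2 of 10 called higher), but only 4 of the 10 were higher in every sST2-KO library. The others overlapped, such as Csf1r at 62.3 to 78.8 in WT and 64.0, 63.0 and 313 in sST2-KO replicates 1 to 3. Lyz2, 1 of the 4, was at 265 to 352 in WT and at 710, 585 and 3383 in sST2-KO. Neutrophil markers summed to 32.4 to 151 and 153 to 714 (3 of 10 called higher), and endothelial markers to 1118 to 1505 and 993 to 1857 (1 of 6 called lower). All 10 skeletal muscle markers were higher in every sST2-KO library, with sums of 8.01 to 1306 and 3663 to 15654. None of them passed in edgeR, 8 were higher at an unadjusted p under 0.05 and 2 passed in DESeq2. Among the defining markers, Ckm, Myh2 and Myh4 were at 0 in WT replicate 3, Myh2 and Ly6g at 0 in WT replicate 2, and no brown adipocyte, macrophage, T cell or endothelial marker was at 0 in any library. Mitochondrial counts were 6.80% of the total in sST2-KO replicate 3 and 11.8% to 16.6% in the others.

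Set against these sums, Egr1 and Junb were about level in the sST2-KO mice, as was the T cell sum at 131, 131 and 162 in replicates 1 to 3, while the macrophage sum was 1697, 1580 and 6765. Fos was at 27.6, 27.3 and 9.86 in WT replicates 1 to 3, and their muscle sums were 1306, 22.5 and 8.01. WT replicate 3, the lowest of its group in Fos, Junb and Ier3, also had the lowest macrophage sum of WT (892). Its brown adipocyte (16509) and neutrophil (151) sums were the highest of WT. Fos, Junb and Ier3 were highest in sST2-KO replicate 3, which also had the highest macrophage, neutrophil, T cell and muscle sums and the lowest brown adipocyte sum. The part of cell composition in the differences of the immediate early genes was not tested.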

How the data were processed

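The authors prepared poly-A libraries, sequenced 150 bp paired-end reads, checked them with FastQC 0.12.1, aligned them to mm39 with HISAT2 2.2.1 and counted reads per gene with htseq-count. The version, strand setting and annotation are not given in the sources used here. The deposited values are raw counts per gene symbol, one column per mouse, and 0 columns were left unused. They came from 3 WT and 3 sST2-KO libraries, grouped by their labels, of 8159442 to 12874809 counts. Of the 35976 rows, 11377 had no count, and 27 symbols had turned into dates and are not named.

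Counts were compared in R 4.3.3 with edgeR 4.0.16 (TMM, filterByExpr, glmQLFit and glmQLFTest, Benjamini-Hochberg adjustment), without a covariate. The study's methods name DESeq2 and a 2-fold limit. Calls needed an adjusted p under 0.05 and more than a 2-fold difference. The SE is the log2 fold change divided by the square root of F. The common biological coefficient of variation was 0.325. DESeq2 1.42.0 was run as an alternative, as were scaling by RLE factors or by total counts, fits without a filter or with a minimum of 10 counts in all libraries, a replicate block, and fits without 1 library each. The steps were also run on simulated data. These gave every gene the same spread between libraries, unlike the measured genes, so they do not test how stable the calls are here. No library was a copy of another, since pairs within a group gave chi-square values of 36.6 to 104 for each degree of freedom.

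The members and lists were chosen with earlier results of these data known. Named genes were the members, Il1rl1, and in each list up to 4 that passed with the largest changes, or the 2 largest changes where fewer than 2 passed. Loci and canonical transcript lengths are from GENCODE vM39 (GRCm39), promoter windows from RefSeq (GRCm38.p6). Figures were drawn with matplotlib 3.10.9.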

Additional observations from a re-analysis of the deposited data

How the results depend on the processing

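The 5 called members remained 5 in number with DESeq2, RLE factors, total counts, no filter on low counts and a minimum of 10 counts in every library. With the replicate number as a block, 0 genes of the whole table, 0 members and 0 genes of the companion lists were called in either direction, and 4623 genes had an unadjusted p under 0.05 in edgeR, against 5269 without the block. The labels do not say whether the numbers tie WT and sST2-KO mice. The correlations of same-numbered deviations were -0.06, 0.22 and -0.32. With 3 mice per group these values cannot decide whether such a tie exists. Leaving out 1 library at a time gave 36 to 1383 genes called higher (1315 with all) and 22 to 998 called lower (1033), 2 to 5 members called higher, 1 to 24 companion genes called higher (21) and 0 to 6 called lower (5). The lowest of these came without WT replicate 3 (for companion genes called lower, also without WT replicate 2). Nr4a2 changed sign, to 0.17 with total counts and to between -0.74 and 0.17 with a library left out. Of 379 values of named genes under the alternatives, 375 kept their sign. An adjusted p under 0.05 was lost in 75 of them (50 with a library left out) and gained in 4, which were 2 of Sik2, 1 of Sik3 and 1 of Crem. The cause of these changes was not tested.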

Other observations

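The spread of the immediate early genes between mice of one genotype was wide for their abundance. The within-group SD of log2(normalized CPM + 0.5) was above that of most tested genes in the same abundance decile for all 10, from the 67.1st percentile for Junb to 96.4 for Fos and 98.4 for Nr4a3. It was also high for Nr4a1 (92.7) and Nr4a2 (92.9), at 89.1 for Atf3 and 88.7 for Fosb, and lower for Egr1 (78.4), Crem (73.3) and Ier3 (69.2).

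The mice did not rank alike across the 10 genes. WT replicate 2 was the highest WT library in 7 of them, and WT replicate 3 the lowest in 6. In sST2-KO, replicate 2 was highest in 6 (Fosb, Nr4a1, Nr4a2, Nr4a3, Atf3 and Crem), replicate 3 in 3 (Fos, Junb and Ier3) and replicate 1 in 1 (Egr1).

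Ratios of counts between a pair of genes within a library do not depend on the scaling of libraries. Of 7 pairs, picked after the values were seen, 4 separated the genotypes without overlap. All 7 set a gene called higher over one that was not called. The share among other pairs was not counted, so nothing is read from the 4. The Egr1 count per Nr4a1 count was 0.552, 0.207 and 0.180 in the WT libraries against 1.53, 0.677 and 1.82 in the sST2-KO libraries. For Ier3 per Atf3 it was 0.161, 0.102 and 0.150 against 0.740, 0.370 and 0.850. For Fos per Nr4a3 it was 0.700, 0.327 and 0.0916 against 11.2, 1.48 and 5.76, and for Egr1 per Crem 1.47, 1.62 and 0.488 against 25.9, 12.0 and 16.7. Fos per Nr4a1, Junb per Nr4a1 and Fos per Jun overlapped between the genotypes.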
